A study of Mus musculus with 12 samples.

Results

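The genes described here encode the proteins of the cytosolic ribosome. They were chosen by symbol: every gene paired alone with a probe set whose symbol was Rpl or Rps with a number and at most a letter and a digit, or was Rplp0, Rplp1, Rplp2 or Rpsa, without annotated pseudogenes and S6 kinases. This gave 47 of the 12393 genes with a single-gene probe set, 26 of the large (60S) and 21 of the small (40S) subunit. Each was represented by its brightest single-gene probe set. A further 27 ribosomal protein genes, among them Rpl5, Rpl23, Rplp1, Rpl10 and Rpl3, met the symbol rule but were named on the arrays only together with other genes, mostly pseudogenes, and are not described gene by gene.

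Expression was measured on 12 Affymetrix arrays of mouse RNA, 3 in each of 4 groups. Unstimulated samples were RAW264.7 cells, a macrophage-like line from a male mouse, and Estradiol samples were RAW264.7 cells kept overnight with estradiol at 1 ug/mL. The design text gives the untreated cultures vehicle, which the sample labels do not mention. Control and Pregnant samples were cells washed from the airways by bronchoalveolar lavage of control and of pregnant mice and taken straight to RNA extraction; genotype, strain, age, stage of pregnancy and any pooling are not given in the sources used here. The labels attach the estradiol treatment text to every sample, and groups were taken from the group label. Nothing in them says that replicates were separate cultures or animals, so the spread behind each p-value is that among these arrays and may be technical.

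The small subunit decodes the messenger RNA, and the large subunit joins amino acids and carries the flexible stalk of P proteins that recruits elongation factors. Each subunit needs its proteins in fixed proportion, and most of their messages begin with a terminal oligopyrimidine (TOP) tract, a C followed by further C or T bases, through which mTOR signalling and LARP1 set their translation together. Several members have a second gene, a paralog, whose protein can take the parent's place (Rpl22l1 for Rpl22, Rps27l for Rps27, Rpl39l for Rpl39, Rpl3l for Rpl3). Rpl7l1, a relative of Rpl7, acts in assembly of the large subunit.

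The start regions of the members share sequence that the symbol rule did not use. RefSeq windows (build GRCm38.p6) from 250 bases before to 50 bases after the annotated start were matched by symbol for 42 of the 47 members, with the most upstream start of each gene. A pyrimidine tract, here a C followed by at least 4 C or T bases and starting within 10 bases of the annotated start on the sense strand, was present for 26 of 42 members (61.9%), against 32.1% of the 9887 genes on the arrays that had a window. The sequence CCGGAAG, the core bound by ETS family factors, was found on either strand in 21 of 42 windows, against 15.0% of the genes on the arrays. GGGCGG, a GC box, was found in 54.8% of member windows and 57.5% of the windows of genes on the arrays. TATAAA was in 14.3% and 10.1%, and GCCATNTT, the core bound by YY1, in 16.7% and 7.5%. These matches describe letters in the windows and are not binding sites, and the motifs were counted on both strands apart from the tract.

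The windows below, from 40 bases before to 20 bases after the start, show 3 pairs of paralog and parent, together with Rpl14, the canonical member with the largest difference between lavage and cell-line samples. Capitals mark the pyrimidines from the first position within 10 bases of the annotated start at which a C is followed by at least 4 C or T bases. In Rps27l and Rpl22l1 the run of pyrimidines begins further upstream than the capitals. The stretch in capitals was 14 bases long in Rpl14, 8 in Rpl22l1 and 5 in Rpl22. In each of these 3 pairs both genes had such a stretch, and the window of Rpl7l1 had none.
Rpl39l (chr16:10170188-10170247, plus strand): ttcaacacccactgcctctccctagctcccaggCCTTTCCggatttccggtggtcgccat
Rpl39 (chrX:37085203-37085262, minus strand): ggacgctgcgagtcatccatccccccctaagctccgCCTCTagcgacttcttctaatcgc
Rps27l (chr9:66946046-66946105, plus strand): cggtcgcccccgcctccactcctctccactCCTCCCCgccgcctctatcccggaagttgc
Rps27 (chr3:90213629-90213688, minus strand): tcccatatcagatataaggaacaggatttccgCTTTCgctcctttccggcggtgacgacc
Rpl22l1 (chr3:28805468-28805527, plus strand): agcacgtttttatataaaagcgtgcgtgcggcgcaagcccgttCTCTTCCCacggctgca
Rpl22 (chr4:152324396-152324455, plus strand): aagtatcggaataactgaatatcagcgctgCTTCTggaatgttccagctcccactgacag
Rpl14 (chr9:120571477-120571536, plus strand): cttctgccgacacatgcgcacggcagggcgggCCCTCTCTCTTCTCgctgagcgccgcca

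Values are RMA intensities on a linear scale, analysed as log2(value + 1), and a log2 change is on that scale. The number of arrays limits the precision. Median intensities of the arrays lay between 369 and 393. The 3' to 5' difference of the actin control probe sets, a sign of RNA quality, was 0.74 (log2) for Estradiol replicate 2 and 0.39 to 0.48 for the other RAW264.7 arrays. In each group 7 of 8 macrophage markers lay above the 40th percentile on every array, but not the same 7 in both sources. Mertk was dim in RAW264.7 samples (4.4, 4.6 and 4.5 in Unstimulated, 11.8, 12.3 and 12.3 in Control). Itgam was dim in lavage samples (8.8, 8.8 and 8.7 in Unstimulated, 6.2, 5.4 and 5.3 in Control). Of 11 alveolar macrophage markers, 11 lay above that percentile on every array in both lavage groups and 5 in both RAW264.7 groups. The lavage samples also held transcripts of other lung cells: the summed intensity of 10 epithelial markers was 26834 to 36386 in Control and 31236 to 40931 in Pregnant, against 419 to 522 over both RAW264.7 groups, where 0 of the 10 lay above the 40th percentile on all 3 arrays of a group (7 in Control, 9 in Pregnant). For 9 neutrophil markers the sums were 6427 to 20503 in Control and 6730 to 11332 in Pregnant, against 359 to 598. For 7 B cell markers they were 5774 to 6134 and 5626 to 6294, against 212 to 231. Above the 40th percentile on all 3 arrays of each lavage group lay 4 of the 9 neutrophil and 1 of the 7 B cell markers, Cd22. The B cell sums in lavage samples were mostly Cd22 (12.4, 12.5 and 12.5 in Control, 5.4, 5.4 and 5.3 in Unstimulated). Of the other B cell markers, all dim, Blk and Cd79b were higher in Control than in Unstimulated samples and Fcer2a was lower. Cd79a, Ms4a1 and Pax5 overlapped between these groups. The sums of 11 T cell markers were 10507 to 10815 in Unstimulated, 8012 to 8550 in Estradiol, 12832 to 14978 in Control and 12498 to 13274 in Pregnant samples. These markers went both ways: Cd2, Ccr7, Cd3d, Cd3e and Cd3g were higher in Control than in Unstimulated samples, and Cd28 and Il7r lower. The other T cell markers overlapped between these groups. The sums of 3 erythroid markers were 92 to 112 in RAW264.7, 256 to 899 in Control and 414 to 2943 in Pregnant samples. Among the erythroid markers only Alas2 was higher in Control than in Unstimulated samples. Hba-a1 and Slc4a1, dim in both groups, were lower in Control samples without overlap. No marker list was read as a share of cells. In bulk samples such as these, fewer cells of a type and less RNA per cell cannot be told apart.

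Ribosomal protein messages gave some of the strongest signals on the arrays, and their levels were tight. On every array 37 of the 47 members lay at or above the 95th percentile of all probe sets, with means over the 12 arrays between 13.15 and 14.45 (log2). The other 10 were read by dimmer probe sets, and 4 lay below the 50th percentile on average. The median SD of the members between replicates was 0.03 in Unstimulated, 0.02 in Estradiol, 0.04 in Control and 0.03 in Pregnant samples, against 0.06, 0.09, 0.10 and 0.10 over all genes. Most of those genes were dimmer, 7152 of them with a mean below 10 (log2). The spread of equally bright other genes was not measured, so the narrow spread cannot be called particular to the members. For 37 members the whole range over the 12 arrays was under 0.3 (log2), and for 6 it was over 0.5.

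The stalk and other core members show how narrow this was. Rplp0, the stalk base, measured 13.61, 13.61 and 13.60 in the Unstimulated samples, 13.63, 13.63 and 13.62 with estradiol, 13.44, 13.40 and 13.49 in Control and 13.44, 13.40 and 13.47 in Pregnant samples. The lavage samples were thus below the cell line, and the 2 groups within each source lay close together. Rplp2, its partner in the stalk, ranged from 14.39 to 14.44 over all 12 arrays, with every group overlapping. Rpl11, a large-subunit protein that binds and inhibits MDM2 when it is free of ribosomes, ranged from 13.74 to 13.79. Rps3, at the messenger RNA entry site, ranged from 13.96 to 14.01 in the 6 RAW264.7 samples and from 13.88 to 13.93 in the 6 lavage samples, without overlap. Its difference between Control and Unstimulated samples, -0.07 ± 0.04 (SE), did not pass (limma adjusted p = 0.195). Of all genes 39.1% were lower in Control than in Unstimulated samples without overlap.

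**Figure D1:**
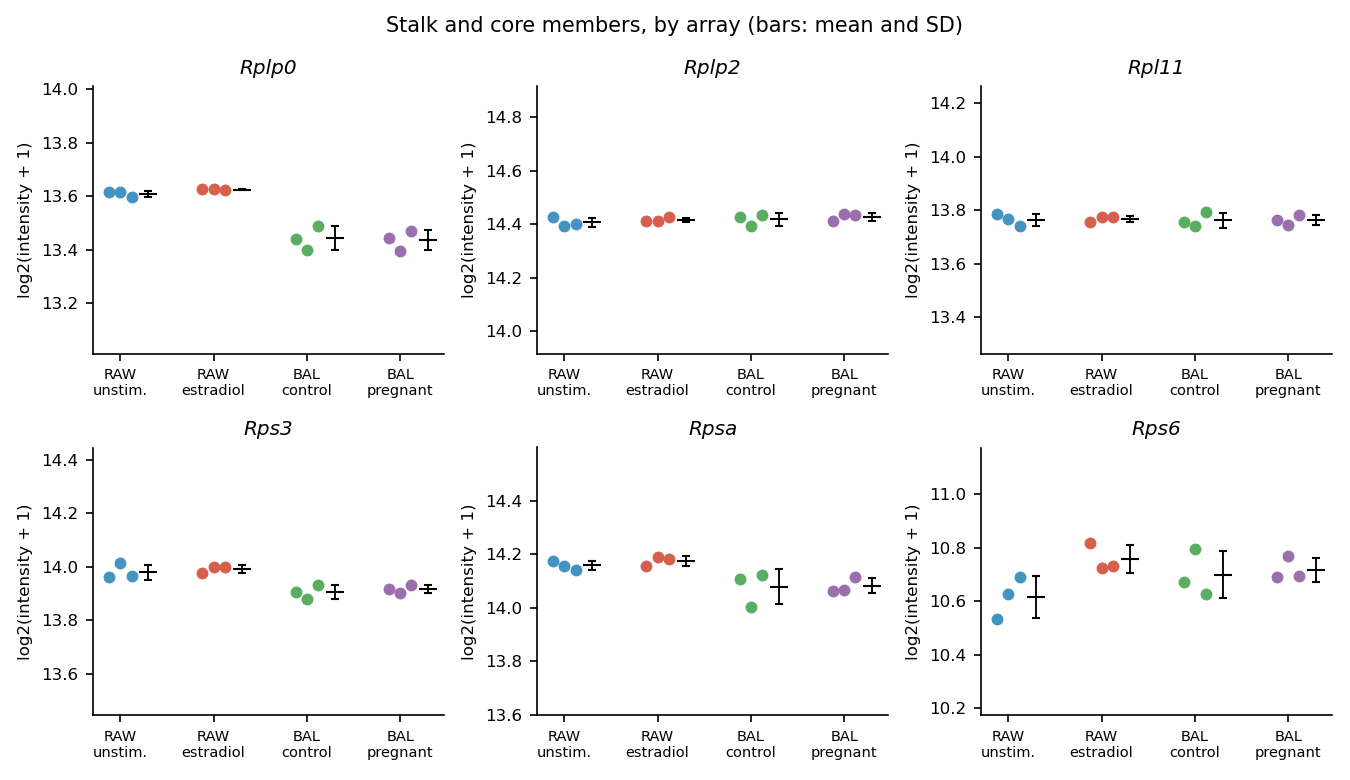
log2(intensity + 1) of 6 core members on each of the 12 arrays, with the mean and SD (n = 3) of each group beside the points; BAL is bronchoalveolar lavage, and all panels span at least 1 log2 unit. The points of Rplp2 stay between 14.39 and 14.44, and those of Rplp0 are lower in the lavage groups.

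Estradiol and ribosomal protein messages were compared in RAW264.7 cells, 3 Estradiol against 3 Unstimulated arrays. Limma called none of the 47 members at an adjusted p under 0.05: 0 were called higher and 0 lower, and 1 had an unadjusted p under 0.05 (26.9% of all genes did). Over all 12393 genes, 6.75% were called higher and 4.66% lower (11.4% in either direction). The members' log2 changes ran from -0.08 to 0.18, with a median of 0.01 beside 0.02 over all genes, and 44 of 47 had 95% intervals inside -0.3 to 0.3. The median was 0.01 for the 26 large-subunit and 0.04 for the 21 small-subunit genes. No filter on low values was used here; 43 of the 47 lay above the 40th percentile of their array on at least 3 of the 6 arrays, all but Rpl37, Rpl39, Rpl39l and Rpl3l.

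Rps27l, the paralog of Rps27 and a known target of p53, had the smallest p in this comparison. It measured 13.39, 13.38 and 13.31 in Unstimulated samples and 13.53, 13.50 and 13.59 with estradiol, so the groups did not overlap. Its log2 change was 0.18 ± 0.05 (SE, 1.13-fold) and missed the threshold (limma adjusted p = 0.0747). All 3 Rps27l probe sets had positive changes, of 0.18, 0.16 and 0.21, with limma adjusted p = 0.0920, 0.104 and 0.0605 over all probe sets. The gene did pass with dim genes left out (limma adjusted p = 0.0324), with an intensity-dependent prior (0.00632) and with array weights (0.00411). Without Estradiol replicate 2 its change was 0.20 (limma adjusted p = 0.0559), and over the other arrays left out in turn the adjusted p ran from 0.112 to 0.228. Across comparisons the same gene was at 0.08 ± 0.07 (SE) in Pregnant against Control samples, and the difference between the 2 changes did not pass (-0.10 ± 0.08, limma adjusted p = 0.534).

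Of the regulators described further on, 2 targets of p53 were among those called in the same samples. Mdm2, the ligase that degrades p53 and is bound by free Rpl5 and Rpl11, rose by 0.71 ± 0.05 (SE, 1.63-fold, limma adjusted p = 0.000505), and the cell cycle inhibitor Cdkn1a rose 1.75-fold (limma adjusted p = 0.000253). The difference between the pregnancy and estradiol changes was -0.60 for Mdm2 and -0.49 for Cdkn1a (limma adjusted p = 0.00238 and 0.00963). Rpl11 was at 0.00 ± 0.04 (SE) with estradiol, with a 95% interval from -0.10 to 0.11.

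Rps6, the small-subunit protein phosphorylated by S6 kinases, measured 10.53, 10.63 and 10.69 in Unstimulated and 10.82, 10.72 and 10.73 in Estradiol samples. The groups did not overlap, as for 9 members higher and 2 lower with estradiol (over all genes 19.9% were higher and 14.9% lower without overlap). The change was 0.14 ± 0.06 (SE, limma adjusted p = 0.188), and a second, dimmer Rps6 probe set was at -0.09. Rpl22l1 went the other way without passing, from 13.32, 13.35 and 13.27 to 13.23, 13.24 and 13.21, a change of -0.08 ± 0.05 (SE, limma adjusted p = 0.306). Of the other members with small p-values, Rpl37 was at 0.15, Rpl39 at 0.09, Rps27 at 0.07, Rps24 at 0.08, Rpl7l1 at 0.07, Rps20 at 0.06 and Rps19 at 0.07, with limma adjusted p from 0.214 to 0.443. Rplp0 (0.02), Rplp2 (0.01), Rpl13a (0.01), Rpl7 (0.01), the laminin-receptor protein gene Rpsa (0.02) and the X-linked Rps4x (0.03) had changes smaller than their errors.

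A single probe set of the members was called with estradiol when all probe sets were tested, the dimmer of the pair for Rpl22. It measured 10.48, 10.49 and 10.50 in Unstimulated and 10.80, 10.73 and 10.73 in Estradiol samples, a rise of 0.26 ± 0.05 (SE, limma adjusted p = 0.0206 over all probe sets). The brighter Rpl22 probe set measured 13.79, 13.77 and 13.74 and then 13.72, 13.74 and 13.77, a change of -0.02 ± 0.05. The annotation gives both to Rpl22 alone, and the name suffix of the dimmer one marks probes that may match several transcripts. Rpl22 binds RNA outside the ribosome and restrains its paralog Rpl22l1.

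Pregnant and control lavage samples were compared over 3 arrays each. Limma called 0 of the 47 members and 0% of all genes (0 of 12393), with 0 members and 1163 genes (9.38%) at an unadjusted p under 0.05. The median change of the members was -0.01, beside 0.03 over all genes, and 46 of the 47 had 95% intervals inside -0.3 to 0.3. The sign of that median depended on scaling, since it was 0.02 with the arrays shifted to a common median. No member was higher and 1 was lower in Pregnant samples without overlap, beside 10.7% and 4.99% of all genes. That member was Rpl6, at 14.15, 14.13 and 14.13 in Control and 14.09, 14.10 and 14.07 in Pregnant samples (-0.05 ± 0.05, SE, limma adjusted p = 0.813).

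The widest difference in pregnancy was that of Rpl12, which with the stalk proteins forms the site where elongation factors bind. It measured 9.53, 9.96 and 9.63 in Control and 9.47, 9.48 and 9.56 in Pregnant samples. Control replicate 2 was high and the groups overlapped, and the change of -0.21 ± 0.12 (SE) did not pass (limma adjusted p = 0.620). Rps27l (0.08), Rps27 (-0.05), Rpl7l1 (-0.04), Rps14 (-0.04), Rps18 (-0.04) and Rps25 (0.04) followed, with limma adjusted p from 0.754 to 0.879, and the dim Rpl39 and Rpl3l were at 0.07 and 0.06. Rplp0 (-0.01), Rplp2 (0.01), Rps6 (0.02), Rpl13a (-0.03), Rpl22l1 (-0.02) and Rps4x (-0.02) differed by less than their errors. The difference between the pregnancy change and the estradiol change was called for 0 of 47 members by limma over all 12 arrays, with 0 at an unadjusted p under 0.05 (19.3% of all genes). Of all genes 2.21% were called higher and 2.22% lower in this test, 4.43% in all. Its median was -0.02 and its range -0.20 to 0.12.

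**Figure D2:**
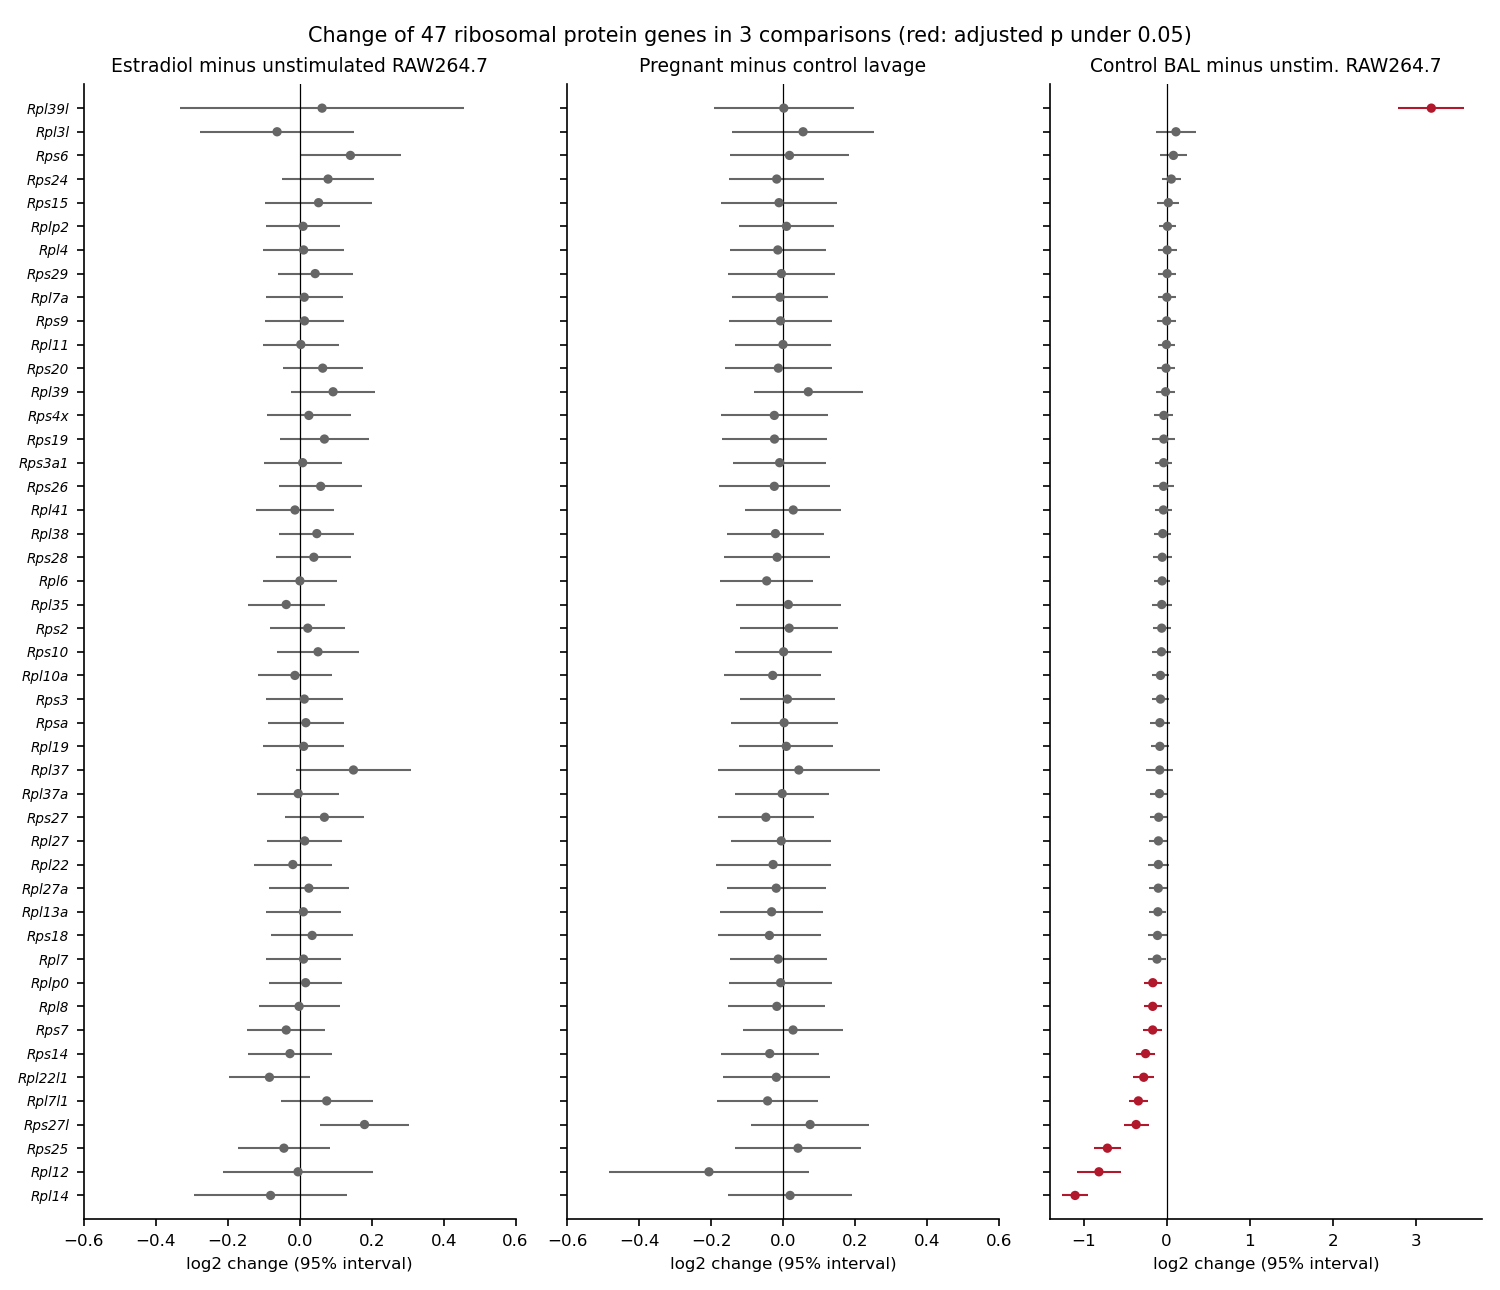
log2 change of each of the 47 members with its 95% interval from limma in the 3 comparisons, ordered by the difference between control lavage and unstimulated RAW264.7 samples; red marks an adjusted p under 0.05, and the third panel has a wider axis. No member is red for estradiol or pregnancy, and 11 are red for the source of the cells.

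The lavage macrophages and the cell line differed in part of the family. Control lavage and Unstimulated RAW264.7 samples were compared over 3 arrays each; these groups differ at once in origin, culture, cell mixture and Y-linked expression (Eif2s3y, given with the initiation factors), which cannot be told apart, and each group also serves in one of the comparisons above. Limma called 1 member higher and 10 lower in lavage cells, and 14 had an unadjusted p under 0.05 (65.7% of all genes did). Over all genes 27.9% were called higher and 34% lower, 61.9% in all, beside 11 of 47 members (23.4%). The median change of the members was -0.06 beside -0.07 over all genes, and -0.08 and -0.05 for the large and the small subunit. Without overlap, 1 member was higher and 29 were lower in lavage cells, beside 30.8% and 39.1% of all genes.

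The 1 member higher in lavage cells was Rpl39l, the paralog of Rpl39 best known from the testis, where its protein takes the place of Rpl39 at the exit tunnel of the ribosome. It measured 5.36, 5.82 and 5.17 in Unstimulated and 5.36, 5.58 and 5.60 in Estradiol samples, and 8.71, 8.57 and 8.64 in Control and 8.51, 8.71 and 8.71 in Pregnant samples. All 6 lavage values lay above all 6 RAW264.7 values. All 3 Unstimulated values lay at or below the 40th percentile of their array, so the size of the difference has only a bound. Control samples were at least 3.07-fold higher (1.62 on the log2 scale) with the Unstimulated values raised to that percentile, and the values as read differed by 3.19 ± 0.16 (SE, limma adjusted p = 7.35e-06). It kept its call with each of these 6 arrays left out in turn. Within a source its change was 0.06 ± 0.17 with estradiol and 0.00 ± 0.08 in pregnancy (SE, limma adjusted p = 0.855 and 0.996). The single-gene probe set of the parent Rpl39 was dim in every sample, from 5.83 to 6.0, and its difference between sources was -0.01 ± 0.05 (SE), with a 95% interval from -0.12 to 0.10. The epithelial markers given above differed between sources too, as did some of the neutrophil, B cell, T cell and erythroid markers, in both directions. Their part in the Rpl39l difference and in those that follow was not tested.

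Among the 10 members lower in lavage cells, 7 were canonical subunit proteins. Rpl14, a large-subunit protein, measured 11.41, 11.54 and 11.54 in Unstimulated and 10.42, 10.46 and 10.31 in Control samples, a difference of -1.10 ± 0.07 (SE, 2.15-fold lower, limma adjusted p = 1.41e-05). Rps25, a small-subunit protein used by viral internal ribosome entry sites, went from 12.18, 12.30 and 12.23 to 11.47, 11.63 and 11.46, or -0.71 ± 0.07 (SE, 1.64-fold lower). Rpl12 went from 10.50, 10.54 and 10.53 to 9.53, 9.96 and 9.63, or -0.81 ± 0.11 (SE, 1.76-fold lower). For all of these the groups were far apart, and the values with estradiol and in pregnancy stayed with their own source. Rpl14, Rps25 and Rpl12 were each read by 1 single-gene probe set, with a mean between 10 and 13 (log2). No brighter single-gene probe set of these genes was available for comparison. Source differences were wider in that class than among the brightest probe sets, as given below.

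The remaining canonical calls were small. Rps14, whose human counterpart is lost in the 5q- syndrome, was at -0.25 ± 0.05 (SE), and Rpl8, Rplp0 and Rps7 were each at -0.17 with limma adjusted p from 0.0163 to 0.0209. Rpl8 and Rplp0 no longer passed when Unstimulated replicate 1 was dropped (limma gave 0.0520 and 0.0618 after adjustment), nor when the second Unstimulated array was dropped (0.0581 and 0.0665) or the third (0.0564 and 0.0563). Rps7 no longer passed when the first (0.0674) or second (0.0792) Unstimulated array or the third Control array (0.0608) was dropped, and its change was -0.02 with probe sets of suffix x or s, which may match several transcripts, left out. Rpl7 (-0.12) and Rpl13a (-0.10) lay just outside the threshold (limma adjusted p = 0.0639 and 0.0727). Rplp2 (0.01), Rpl11 (0.00), Rps6 (0.08), Rpsa (-0.08) and Rps4x (-0.03) did not pass.

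The other 3 lower members were paralogs. Rps27l measured 13.08, 12.89 and 13.01 in Control samples and lay below all Unstimulated values, at -0.37 ± 0.06 (SE, 1.29-fold lower, limma adjusted p = 0.00222). Its 3 probe sets were at -0.37, -0.37 and -0.44. Rpl22l1 measured 13.06, 12.98 and 13.07 and was lower by a log2 change of -0.28 ± 0.05 (SE, 1.21-fold, limma adjusted p = 0.00343). Rpl7l1 measured 11.80, 11.89 and 11.88 against 12.18, 12.20 and 12.20, or -0.34 ± 0.05 (SE, 1.26-fold lower). The parents Rps27 (-0.09), Rpl22 (-0.10) and Rpl7 (-0.12) did not pass, and the muscle paralog Rpl3l, dim throughout, was at 0.11. No difference between a paralog's change and its parent's was tested.

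**Figure D3:**
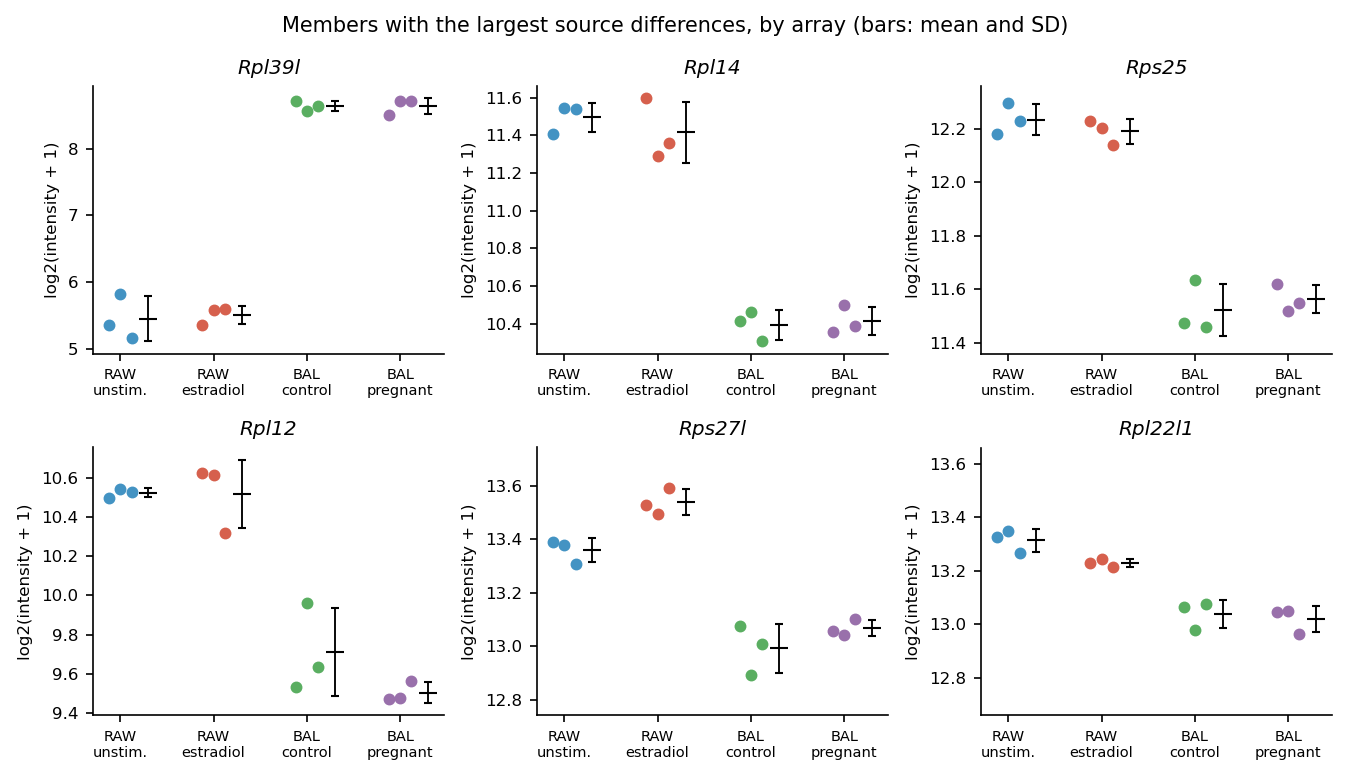
log2(intensity + 1) of 6 members on each of the 12 arrays, with the mean and SD (n = 3) of each group beside the points; axes differ between panels. Rpl39l is higher in all lavage samples, the other 5 genes are lower there, and the Estradiol points of Rps27l lie above the Unstimulated ones.

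How large a source difference was read depended on the probe set. The 47 members had 99 single-gene probe sets, and 23 members had more than 1. The 62 probe sets with a mean of 13 or above (log2) had source differences from -0.37 to 0.08 with a median of -0.06, while the 17 between 10 and 13 had a median of -0.44 and ran from -1.10 to 0.43. The 20 below 10 had a median of -0.13 and ran from -0.85 to 3.19. The median absolute difference was 0.06, 0.44 and 0.32 in these 3 classes, so it was largest in the middle one. In 17 members a bright probe set stood beside a dimmer one of the same gene. There the 35 bright ones had a median of -0.07 and the 25 dimmer ones of -0.35, and of the dimmer ones 16 were called lower and 3 higher. Rpl13a, a large-subunit protein that also silences inflammatory messages as part of the GAIT complex, is an example: its 4 probe sets, from bright to dim, had source differences of -0.10, -0.13, -0.77 and -0.997. The 4 probe sets of Rpl41, the shortest ribosomal protein, were at -0.04, -0.08, -0.71 and -0.79. Rps20 went the other way, with its bright pair at -0.01 and -0.01 and its dim pair at 1.19 and 1.06. Rpl22, too, was at -0.10 by its bright and 0.43 by its dimmer probe set. The part of brightness in these differences was not tested.

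Over all genes, the calls also varied with brightness. Of the 448 genes with a mean of 13 or above, 3.12% were called with estradiol, against 13.7% of the genes between 10 and 13 and 10.4% of those below 10. Between sources 57.8%, 76.8% and 52.1% were called in these classes, so the share did not follow brightness in 1 direction. The 448, each read by its brightest probe set, had a median absolute difference of 0.17. They include the 37 members at that level, whose 62 probe sets had a median absolute difference of 0.06. The 2 values are thus not of like units, since some members count there with several probe sets.

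**Figure D4:**
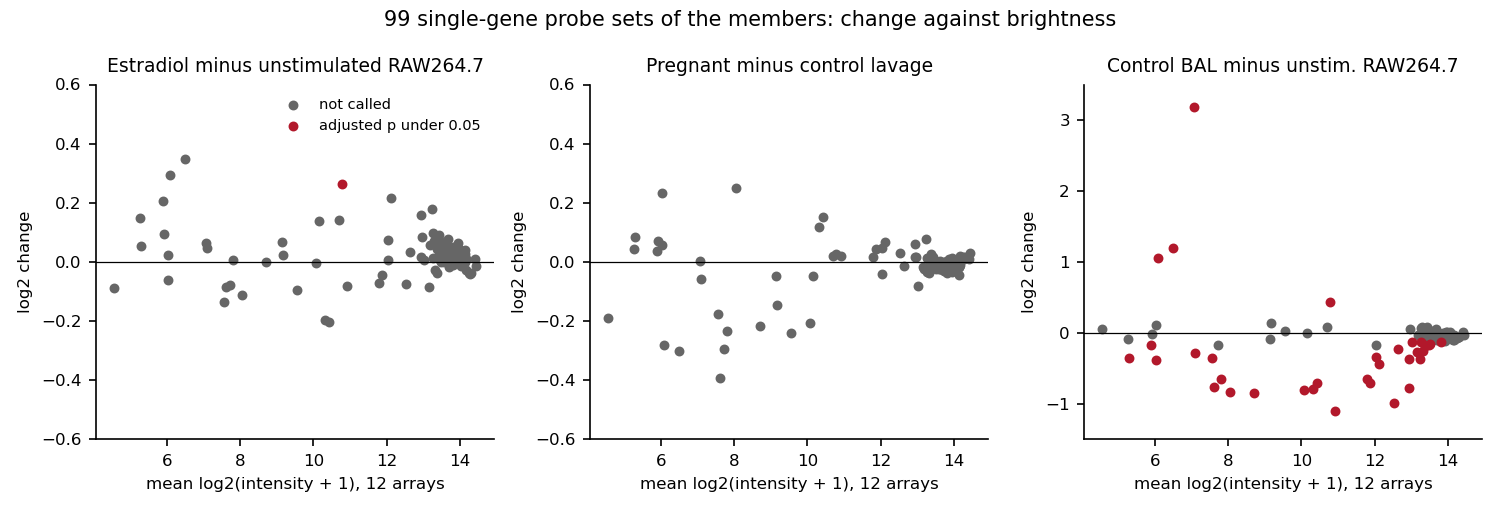
log2 change of the 99 single-gene probe sets of the members against their mean log2(intensity + 1) over the 12 arrays, for the 3 comparisons; red marks a limma adjusted p under 0.05 over all probe sets, and the third panel has a wider axis. The bright probe sets lie near 0 in every panel, and most of the red points between sources lie below 0.

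A further 102 probe sets were annotated to a ribosomal protein together with other genes. With estradiol 1 was called higher and 2 lower, with a median of 0.03, beside 9.27% of all probe sets called, and in pregnancy 0 were called, with a median of -0.01. Between sources 5 were called higher and 15 lower, with a median of -0.02, while of the 99 single-gene probe sets of the members 4 were called higher and 31 lower, with a median of -0.07. Of all probe sets 61.1% were called between sources.

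Other parts of the translation machinery were read beside the ribosome. Of 19 other TOP messages and translation factors, limma called 0 with estradiol (0 at an unadjusted p under 0.05; median 0.01) and 0 in pregnancy (1 unadjusted; median -0.03). Between sources 1 was called higher and 8 lower (47.4%, against 61.9% of all genes), with a median of -0.11. Among these, the RNA-binding protein Hnrnpa1 was lower in lavage cells by a log2 change of -0.63, the nucleolar chaperone Npm1 by -0.41, the poly(A)-binding protein Pabpc1 by -0.38 and the initiation factor subunit Eif3l by -0.24.

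Ribosome assembly genes were mostly lower in lavage cells. Of 54 genes for rRNA synthesis and subunit assembly, 47 were called lower and 2 higher in lavage cells (90.7%, against 61.9% of all genes, of which 34% lower), with a median of -0.53. The assembly factor Wdr12 was at -1.41, Nop16 at -1.37, the polymerase I factor subunit Taf1d at -1.28 and the H/ACA protein Gar1 at -1.03. With estradiol 3 of the 54 were called higher (5.56%, against 6.75% of all genes), namely Utp4 by 0.27, Nolc1 by 0.22 and Rrp9 by 0.21. The share called was near the background. Of the 54 changes 40 were positive, with a median of 0.07, beside 6804 positive changes and a median of 0.02 over all 12393 genes. Without overlap 20 were higher and 4 lower with estradiol, beside 19.9% and 14.9% of all genes. In pregnancy 0 were called (0 unadjusted, median 0.00).

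Mitochondria have a ribosome of their own, with separate proteins encoded in the nucleus. Of 74 mitochondrial ribosomal protein genes, 5 were called lower with estradiol and 0 higher (6.76%, against 4.66% of all genes called lower). These included Mrps18a at -0.34, Mrpl16 at -0.25, Mrpl48 at -0.27 and Mrps35 at -0.21. The share called was near the background. Of the 74 changes 64 were negative, with a median of -0.09, beside 5589 negative changes and a median of 0.02 over all 12393 genes. Without overlap 38 were lower and 3 higher with estradiol, beside 14.9% and 19.9% of all genes. In pregnancy 0 were called (3 unadjusted) and the median was 0.05. Between sources 59 were lower and 3 higher in lavage cells (83.8% called, against 61.9% of all genes; median -0.37), among them Mrpl19 at -1.13, Mrpl45 at -0.78, Mrps9 at -0.73 and Mrps26 at -0.77. The difference between the pregnancy and estradiol changes was called for 1 of the 74, Mrpl45 (0.28, limma adjusted p = 0.0442).

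Initiation factors and regulators complete the pathway. Of 42 genes with an Eif symbol, 1 rose with estradiol (Eif2d, by 0.26) and 2 fell (Eif1b by 0.25 and the interferon-induced kinase Eif2ak2 by 0.26), or 7.14% against 11.4% of all genes, and 0 were called in pregnancy (0 unadjusted). Over all genes 61.9% were called between sources, 27.9% higher and 34% lower in lavage cells. Among the 42 Eif genes 5 were called higher and 24 lower there (69% called). They included the cap-binding protein Eif4e (-1.03) and the Y-linked Eif2s3y, which was dim in all 3 Control samples and at least 40.5-fold lower there than in Unstimulated samples, by the same kind of bound as for Rpl39l. Of 15 regulators, 3 rose with estradiol: Mdm2, Cdkn1a and the transcription factor Mycn (0.39), or 20% against 6.75% of all genes called higher. Between sources 8 were higher and 6 lower (93.3% called, against 61.9% of all genes). Myc, which drives ribosome production, was higher in lavage cells by 2.61 ± 0.17 (SE, 6.12-fold), and its relative Mycn was lower there, at -4.63. Of the 3 Control values of Mycn, 1 lay at or below the 40th percentile of its array, so the size of that difference is uncertain. In pregnancy 0 of the 15 were called (1 unadjusted).

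**Figure D5:**
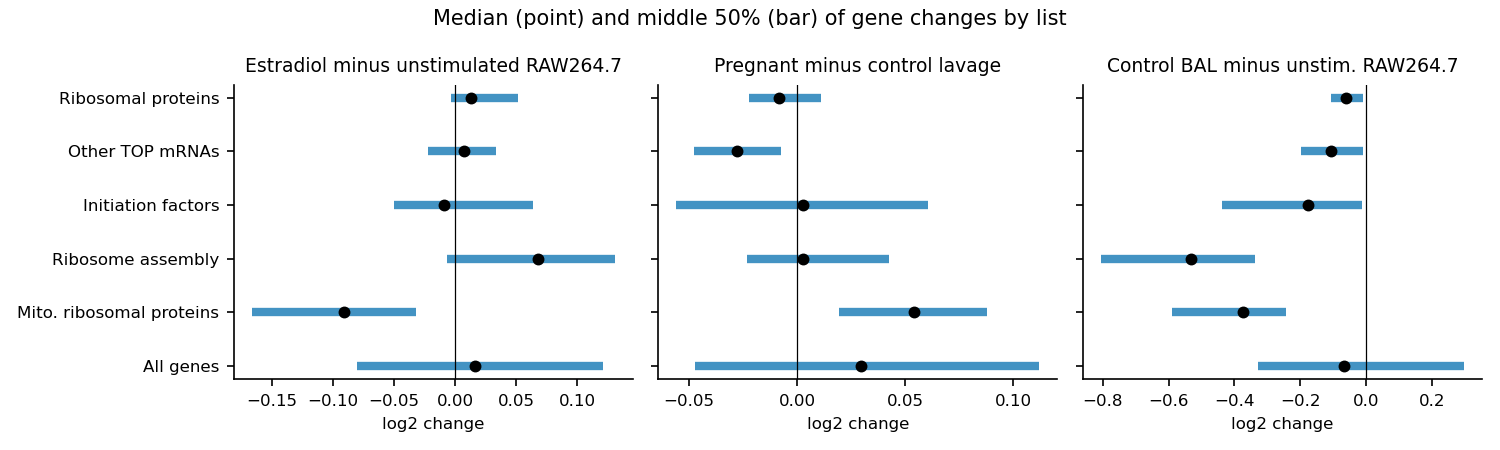
Median (point) and middle 50% (bar) of the log2 changes of the genes in each list and of all 12393 genes, for the 3 comparisons; the axes differ between panels. The bars of the ribosomal proteins are narrow in every panel, and between sources their median of -0.06 stands beside -0.53 for ribosome assembly and -0.37 for mitochondrial ribosomal proteins.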

How the data were processed

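Affymetrix arrays measured RNA from 12 samples, 3 in each of 4 groups. Per the submitters' processing notes, the authors made the deposited intensity values with RMA, version not stated; they are linear, from 6.51 to 28506. They were analysed as log2(value + 1). Of 22690 probe sets, 20380 had 1 gene in the platform annotation, 691 several and 1555 none, and 64 were controls. All probe sets entered the percentiles except controls. The 47 members were matched to RefSeq by Entrez ID, and 1 annotated pseudogene, Rps4l, was dropped.

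Each comparison was fitted with limma 3.58.1 (R 4.3.3, lmFit and eBayes) on its 6 arrays, and the difference between changes on all 12, with Benjamini-Hochberg adjustment over 12393 genes and a two-sided threshold of 0.05. The fits were tested on simulated data. An exact permutation test of 3 against 3 cannot go below p = 0.1 and was not used. Per comparison, the text names up to 10 called members in each direction, or the 10 with the smallest p where fewer than 5 passed. It adds stalk proteins, paralogs with their parents, Rpl11, Rpl13a, Rps6, Rpsa, Rps4x and Rpl39, and up to 4 called genes of each other list. Rps3 and the members named for their probe sets (Rpl41, Rps20) were chosen after their values were seen. The members and lists were chosen with earlier results of these data known. Alternatives were a common median, quantile normalization, leaving out dim genes (those above their array's 40th percentile on fewer than 3 arrays), averaging a gene's probe sets, no probe sets of suffix x or s, array weights, a robust prior that depends on intensity, 1 fit of all 12 arrays, an adjusted p under 0.01, no pseudocount, and each array left out. The bounds for genes dim on all 3 arrays of a group (at or below the 40th percentile) were added after seeing the data. Tables and figures were made in Python 3.11.15 (numpy 2.4.6, pandas 2.3.3, matplotlib 3.10.9).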

Additional observations from a re-analysis of the deposited data

How the results depend on the processing

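With each array left out in turn, the count of members called stayed at 0 for estradiol, for pregnancy and for the difference between them, and between sources it was 1 higher and 7 to 10 lower. The median change then ran from 0.01 to 0.02 for estradiol, -0.01 to 0.00 for pregnancy, -0.08 to -0.06 between sources and -0.04 to -0.01 for the difference. Giving all arrays 1 median put the members' median change at 0.0419 for estradiol and 0.0223 for pregnancy, beside 0.05 and 0.06 over all genes, and with quantile normalization that of the difference was -0.0068. For estradiol the count called higher was 1 with dim genes left out, 1 with the intensity-dependent prior (Rps27l in both cases) and 2 with array weights (Rps27l and the dim Rpl37). Between sources the mean of all probe sets gave 3 members higher and 19 lower, which held 10 of the 11 called with the brightest one, and turned Rpl22 from -0.10 to 0.16 (limma adjusted p = 0.0151). Without probe sets of suffix x or s 2 were called higher, and with the intensity-dependent prior 21 were called lower. The cause of these shifts was not tested. For the members named one by one, 1426 values kept their side of the threshold under the alternatives, 15 came to pass and 14 ceased to pass. Of the 1426, 89 had the other sign, 0 of them called and all reported at 0.0786 or less in size. The 1 value that passed with the other sign was that of Rpl22, above. No paired analysis was possible because the labels carry no replicate numbers shared between groups. The 37 brightest members lay between 12.89 and 14.49 on every array, and whether changes at that signal are read in full was not tested.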

Other observations

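Rps4l, a relative of the X-linked small-subunit gene Rps4x that RefSeq lists as a transcribed pseudogene, was left out of the family by the rule and showed the same kind of split by source as Rpl39l. It measured 5.27, 5.38 and 5.46 in Unstimulated and 5.99, 4.71 and 5.16 in Estradiol samples, and 10.88, 10.58 and 10.55 in Control and 10.70, 10.85 and 10.57 in Pregnant samples. All 3 Unstimulated values were dim, at or below the 40th percentile of their array. Control samples were at least 12.5-fold higher with those values raised to that percentile, and the values as read differed by 5.30 ± 0.10 (SE, limma adjusted p = 1.05e-07). Its changes of -0.08 ± 0.29 with estradiol and 0.03 ± 0.12 in pregnancy (SE) did not pass (limma adjusted p = 0.892 and 0.948). It was chosen for mention after its values were seen.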
